A study of Canis lupus familiaris with 23 samples.

Results

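The genes described here are the cytokines, chemokines and receptors of the canine array. Their symbols begin with CCL, CXCL, CCR, CXCR or IL and a number, with TNF, or with CSF1, CSF2 or CSF3, and CXCL8, IL6 and CSF1R were set aside. Of 6540 genes with a symbol of their own on the array, 49 met this rule. They were 11 chemokines, 3 chemokine receptors, 13 interleukins or colony stimulating factors, 2 secreted antagonists, 12 interleukin receptors, 2 TNF family ligands, 3 TNF receptors and 3 genes named for their induction by TNF. Each gene was represented by 1 of its probe sets, the one with the highest mean over all 23 samples, and 11 genes had more than 1 probe set. The name rule used no measured difference between samples, and the choice of probe set used the level alone. The genes were, however, chosen with earlier results of these data known.

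Cytokines are small secreted proteins by which cells, above all cells of the immune system, act on each other through receptors on the cell surface. Chemokines form a family of their own that guides leukocytes into tissues and within lymph nodes. In tumors such transcripts can come from the malignant cells, from macrophages and lymphocytes, or from vessels and stroma, and an array of whole tissue reads their sum.

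Tumors made up 15 of the 23 samples, all primary osteosarcomas, which are malignancies that form bone. Alongside them stood 2 cell lines grown from osteosarcoma and 6 normal samples, with kidney, liver and lymph node at 2 apiece. The tumors came from dogs at definitive surgery and before any chemotherapy, and the organs from dogs of a research colony. The methods name the cell lines as MC-KOSA and BW-KOSA without saying which array holds which, so they are called cell line 1 and cell line 2. Normal bone was not among the samples, age, sex and breed were not given for any sample, and each cell line is a single culture here. The values are log2 expression values, in which a difference of 1 is a doubling, and a log2 value describes 1 probe set and cannot be set against that of another gene.

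The labelled organs carried their own markers. All 8 T and NK cell genes measured were highest in lymph node, all 8 kidney tubule genes in kidney and 11 of 12 hepatocyte genes in liver. Of the 3 B and plasma cell genes measured, JCHAIN was highest in lymph node, but PAX5 and XBP1 in liver. The mean of 17 macrophage and myeloid genes was 6.48 to 8.87 in the tumors, 5.68 to 5.87 in kidney, 7.72 to 8.29 in liver, 8.0 to 8.59 in lymph node and 4.54 to 4.63 in the cell lines. The arrays also fell into 2 classes of 5′ signal, read from the difference between the 3′ and 5′ control probe sets of actin and Gapdh. This difference, called the 5′ index, was at least 3.15 in 7 tumors (1, 4, 7, 8, 10, 12 and 14) and in replicate 1 of each organ, and at most 0.85 in the other 8 tumors, replicate 2 of each organ and the cell lines. In 5 tumors (2, 5, 6, 11 and 15) the 5′ probe set of the Dap spike, a control transcript, was 7.23 to 8.83, against at most 5.47 in the other 10.

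The lymph node and the liver each held the highest group mean of 15 of the 49 genes, or 30.6%, against 20.9% and 22.6% of all probe sets. The tumors held the highest mean of 9 genes, or 18.4%, against 11.1%. Those 9 were CCL23, CSF2, IL1A, IL1B, IL1RN, IL10RB, IL13RA1, TNFSF13 and TNFRSF11A. For TNFSF13 this holds for the probe set used, as its other probe set was lower in tumors than in kidney by 1.86 (limma, adjusted p = 1.97e-05) and differed from liver by -0.77 (adjusted p = 0.0467). Tumor medians of CSF2 (5.76), IL1A (3.57), IL1B (3.44), IL10RB (8.46) and TNFRSF11A (5.09) were below the highest organ mean. That mean was 5.86 in kidney for CSF2, 3.55 in liver for IL1B, and 3.76, 8.47 and 5.13 in lymph node for the others. The tumor medians of the remaining genes were not below it. The cell lines held the highest mean of 8 genes, or 16.3%, against 27.1% of all probe sets, and the kidney of 2, IL15 and IL5, or 4.08%, against 18.4%. With 5 groups of unequal size these are orders of means, and many neighbouring means differed by less than the spread of the samples.

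**Figure D1:**
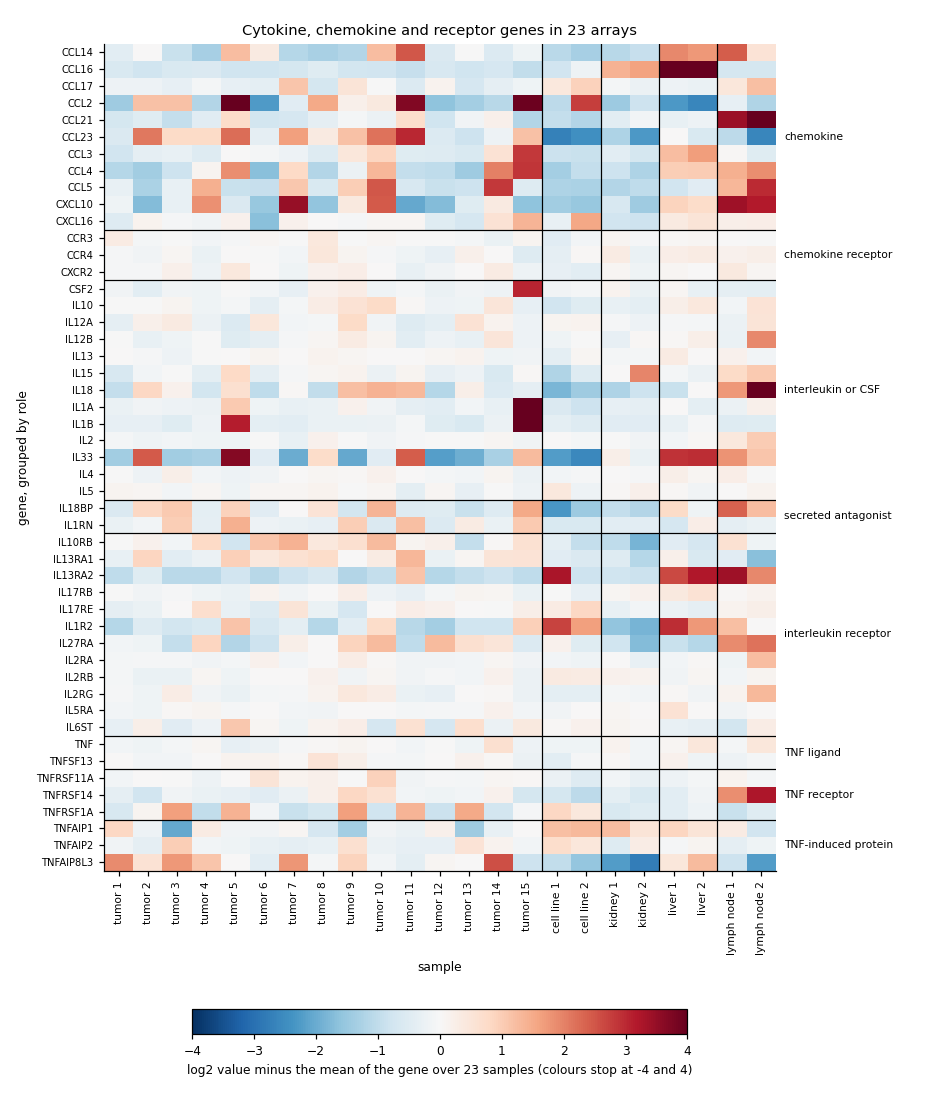
Each row is 1 of the 49 genes, grouped by role, and each column 1 of the 23 samples. Colour gives the log2 value minus the mean of that gene over the 23 samples. Single rows such as CCL16 in liver, CCL21 in lymph node and IL1B in tumor 15 stand out, and most rows of the chemokine receptors, IL4, IL5 and IL13 stay pale in all samples.

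Separation of a whole group from all other samples was the exception. Both lymph node samples lay above every other sample for 5 of the 49 genes, TNFRSF14, CCL21, IL18, IL2 and IL27RA, while 3.75% of all probe sets did so. Both liver samples lay above every other sample for CCL16 and IL17RB, against 4.01% of all probe sets. Both cell lines lay above all other samples only for IL2RB, against 5.26%. No gene of the 49 separated the 15 tumors from the 8 other samples on the high side, and 0.176% of all probe sets did. Likewise 3.26% of all probe sets had both kidneys on top and no gene of the 49 did. On the low side, both cell lines lay below all other samples for 8 genes, CCL3, CXCR2, IL10, IL18, IL18BP, IL1A, IL33 and IL2RG, against 6.98% of all probe sets. Both kidneys did so for IL10RB and IL1R2, against 0.978%, and both livers for CCL2, against 2.37%. No gene of the 49 had the tumors (0.0545% of all probe sets) or the lymph nodes (0.881%) below all other samples. These counts carry no test.

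The comparison of tumors with normal tissue asks which genes make up an osteosarcoma signature. In limma, 3 of the 49 genes passed an adjusted p of 0.01, a share close to the 5.95% of all 23836 probe sets. IL13RA1 was higher in tumors and CCL16 and IL13RA2 were lower. The median difference of the 49 genes was -0.11, and that of all probe sets was -0.02. In bulk samples, fewer cells of a type and less RNA per cell cannot be told apart. The tumors were also set against each organ with the same tumors in every contrast. Against kidney 2 genes passed (7.26% of all probe sets), TNFAIP8L3 higher and CCL16 lower. Against liver 4 passed (9.28%), all lower in tumors: CCL16, IL13RA2, IL1R2 and IL17RB. Against lymph node 5 passed (4.24%), all lower in tumors: CCL21, IL13RA2, IL18, TNFRSF14 and IL2. Between cell lines and tumors 2 passed (6.27%), IL1R2 higher and CCL23 lower in the cell lines. Over all probe sets that contrast called 899 higher and 596 lower, and with each array centred on its median 1297 and 420, where the median over all probe sets moved from -0.02 to 0.09. Both genes passed under either scaling. Among the 3 organs, limma's F-test passed 3 genes (3.09% of all probe sets), CXCL10, CCL16 and CCL4, all of them chemokines.

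CCL16, a chemokine made by hepatocytes, gave the largest difference between tumors and an organ. In the tumors it was 3.13 at the lowest, 3.39 at the median and 3.65 at the highest. The 2 liver samples had 8.62 and 9.93, the kidneys 5.53 and 5.74, the lymph nodes 3.41 and 3.42 and the cell lines 3.37 and 3.92. All 15 tumors were thus below liver and kidney and level with lymph node. CCL16 was lower in tumors than in liver by 5.87 ± 0.20 (SE; 58.6-fold; limma, adjusted p = 1.55e-15) and than in kidney by 2.23 ± 0.20 (adjusted p = 4.31e-08). Against lymph node the difference was -0.02 ± 0.20 (adjusted p = 0.989). Against the 6 normal samples as 1 group it was -2.71 ± 0.64 (adjusted p = 0.00731), where the normal samples themselves spanned 3.41 to 9.93. That call did not pass without either kidney, either liver or any 1 of 13 tumors, with adjusted p from 0.010 to 0.0297. Among the organs CCL16 passed with F = 88.8 (adjusted p = 0.00597).

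CCL21, the chemokine that draws T cells and dendritic cells into lymph nodes, had the opposite organ. It was 10.3 and 11.7 in the lymph nodes, 6.46 and 6.77 in kidney, 6.58 and 6.68 in liver and 5.92 and 5.70 in the cell lines. The tumors ran from 5.71 through a median of 6.42 to 7.62. No tumor came near the lymph nodes, while tumors and the other organs overlapped. Tumors were lower than lymph node by 4.48 ± 0.40 (22.3-fold; limma, adjusted p = 1.63e-07). The other 2 probe sets of CCL21 had lymph node differences of -4.43 (adjusted p = 5.27e-06) and -5.25 (adjusted p = 0.000259). The differences from kidney (-0.08 ± 0.40) and liver (-0.10 ± 0.40) were smaller than their standard errors, and the value against all normal samples was -1.55 ± 0.59 (adjusted p = 0.0921).

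CCL23, a chemokine for monocytes and resting T cells, was the chemokine with its highest group mean in tumors. The tumors had 7.90 at the lowest, 9.51 at the median and 11.8 at the highest. The livers had 8.74 and 8.13, the kidneys 7.51 and 6.44, the lymph nodes 7.68 and 6.14 and the cell lines 6.04 and 6.27. All 15 tumors exceeded both kidneys, both lymph nodes and both cell lines, and 10 of 15 exceeded the higher liver. The cell lines were lower than the tumors by 3.44 ± 0.80 (10.9-fold; limma, adjusted p = 0.00688). This call did not pass without cell line 1 (-3.33, adjusted p = 0.0913) or without cell line 2 (-3.55, adjusted p = 0.0697), where the lone culture is assumed to vary as the other groups do. Against the 6 normal samples CCL23 was 2.16 ± 0.54 higher, just outside the threshold (adjusted p = 0.0104). It passed when 1 of 5 tumors (1, 6, 12, 13 or 14) or liver replicate 1 was left out, with adjusted p from 0.00682 to 0.00982, and not in the other 15 such fits (0.0122 to 0.0314). Fitted in each 5′ class by itself, the CCL23 difference was 1.28 in the low class (adjusted p = 0.281) and 2.99 in the full class (adjusted p = 0.061). The macrophage gene means given above, 4.54 to 4.63 in the cell lines and higher in every tumor, moved in the same direction, and their part in the difference was not tested.

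CXCL10, CCL4 and CCL5 recruit activated T cells, and CCL4 also monocytes. CXCL10 was 9.63 and 9.41 in lymph node, 7.13 and 6.97 in liver and 5.62 and 4.84 in kidney. CCL4 was 6.56 and 6.98 in lymph node, 6.10 and 6.14 in liver and 4.29 and 3.90 in kidney. For both genes the organs were in the same order with no overlap. They differed among organs with F = 105 (limma, adjusted p = 0.00477) for CXCL10 and F = 74.9 (adjusted p = 0.0075) for CCL4. With 2 samples per organ, leaving out a single one ended the call of CCL4 in all 6 fits (adjusted p from 0.0260 to 0.0390), of CXCL10 in all but that without kidney replicate 1 (0.0103 to 0.0388) and of CCL16 in 4 (0.0235 to 0.0445), which left CCL16 past it without either liver.

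The numbers of the organ samples pair them, and with the replicate number as a block 8 genes passed among the organs instead of 3. Calls over all probe sets rose with the block too, from 736 to 1477. The gain was therefore not particular to these genes. The added genes were IL1R2 (adjusted p = 0.0048, against 0.0314 without the block), CCL21 (0.00515 against 0.0119), IL33 (0.00659 against 0.0149), IL27RA (0.00842 against 0.0122) and IL18BP (0.00917 against 0.0532). IL27RA, a receptor subunit for IL-27 on T and NK cells, was 10.1 and 10.4 in lymph node, 7.40 and 6.44 in kidney and 7.29 and 7.04 in liver. IL18BP, the secreted inhibitor of IL-18, was 10.2 and 9.03 in lymph node, 8.55 and 7.62 in liver and 6.83 and 6.61 in kidney. Replicate 1 of each organ also had low 5′ signal, so pairing and 5′ signal cannot be told apart in these samples.

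**Figure D2:**
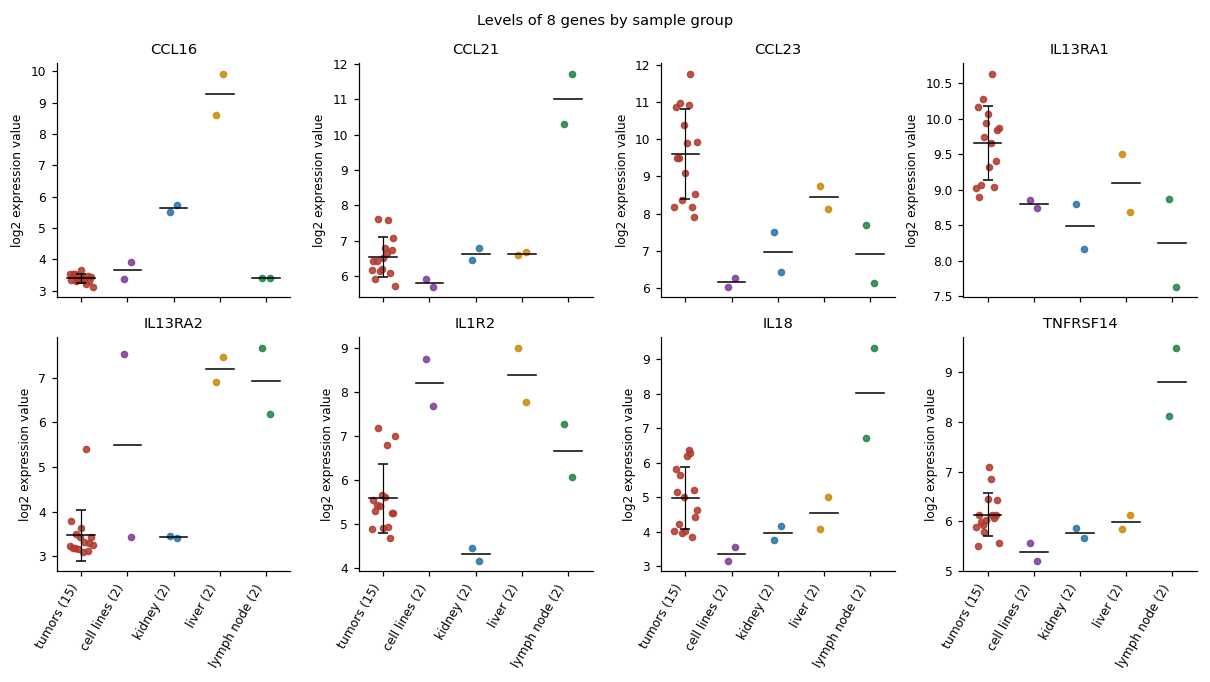
Log2 expression value on the y axis of each panel for 8 genes, with 1 point per sample in the 15 tumors, 2 cell lines and 2 samples of each organ. The line is the group mean and the bar over the tumors the SD. CCL16 is high in liver and intermediate in kidney, CCL21, IL18 and TNFRSF14 are high in lymph node, and the 2 cell lines lie apart for IL13RA2 (7.54 and 3.44).

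The remaining chemokines did not pass in any of these comparisons. CCL2, the main attractant of monocytes, was 5.91 and 5.58 in liver and at least 5.94 in every tumor, yet the difference of 2.91 ± 1.42 had an adjusted p of 0.211, with tumors up to 12.5. Its cell lines differed, at 7.16 and 10.95. CCL14 was 8.05 and 7.86 in liver and 8.53 and 6.65 in lymph node, above 14 and 12 of the 15 tumors, and CCL3 was 6.53 and 6.96 in liver, above 14. Of CXCL16, the ligand of CXCR6, cell line 2 had 8.92 and cell line 1 had 7.07. The chemokine receptors CCR3, CCR4 and CXCR2 never reached a log2 value of 5 in any sample, and the smallest adjusted p of the probe sets used was 0.0941 over all comparisons. The second probe set of CCR3, also under 5 in every tumor, was lower in tumors than in liver by 0.54 (limma, adjusted p = 0.00114). In all, 11 of the 49 genes stayed under 5 in every sample, as did 33.8% of all probe sets, and RMA values of such dim probe sets understate differences.

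IL18, a cytokine of macrophages that drives interferon gamma production, was a lymph node gene here. The lymph nodes had 6.72 and 9.33, liver 4.08 and 4.99, kidney 3.76 and 4.16 and the cell lines 3.16 and 3.55. The tumors ran from 3.83 over a median of 5.02 to 6.36, so all were below both lymph nodes and all above both cell lines. Tumors were lower than lymph node by 3.04 ± 0.66 (8.24-fold; limma, adjusted p = 0.00521). The 2 lymph nodes lay far apart, and without lymph node replicate 2 the difference was -1.74 with an adjusted p of 0.427. The second probe set of IL18 had -0.66 (adjusted p = 0.0152).

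IL2, the T cell growth factor, was also lower in tumors than in lymph node, by 0.80 ± 0.12 (1.74-fold; limma, adjusted p = 0.000125). Its values were 3.73 and 4.32 in the lymph nodes and 2.99 to 3.49 in the tumors, with a median of 3.22. These are levels at the dim end of the array, and without lymph node replicate 2 the adjusted p was 0.0521. IL15, which sustains NK and memory T cells, was 6.5 in kidney replicate 2, 4.59 in kidney replicate 1, 5.31 and 5.60 in lymph node and 4.49 and 4.33 in liver, against 3.92 to 5.36 in tumors with a median of 4.44. It differed from the normal samples by -0.69 ± 0.25 (adjusted p = 0.0696), and the highest normal value came from 1 of the 2 kidneys.

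IL33, an alarmin kept in the nuclei of endothelial and stromal cells, was 9.23 and 9.30 in liver, 8.14 and 7.43 in lymph node and 6.56 and 6.07 in kidney. In the cell lines it was 4.10 and 3.76, below every tumor (lowest 4.12, median 5.02, highest 9.99). The tumors lay on both sides of the organs, and tumor minus liver was -3.20 ± 1.21 (limma, adjusted p = 0.0874). IL4, IL5, IL12A and IL13 had a smallest adjusted p of 0.106 over all comparisons. IL10, an inhibitory cytokine, was 4.50 and 4.79 in the cell lines and at least 4.92 in every tumor, a difference of -0.68 ± 0.24 (adjusted p = 0.0583).

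Receptors for IL-13 gave differences of both signs. IL13RA1 forms the signalling receptor for IL-13 and, with the IL-4 receptor alpha chain, for IL-4. It was 8.90 to 10.6 in tumors with a median of 9.74, 9.51 and 8.69 in liver, 8.87 and 7.64 in lymph node, 8.81 and 8.16 in kidney and 8.85 and 8.74 in the cell lines. All 15 tumors were above both kidneys, both lymph nodes and both cell lines, and 9 were above every normal sample. The difference from the 6 normal samples was 1.05 ± 0.26 (2.07-fold; limma, adjusted p = 0.00978). It did not pass in 16 of the 21 fits that left out a sample (11 tumors in turn, liver replicate 2, and either kidney or lymph node; adjusted p from 0.0110 to 0.0294). Fits within a 5′ class gave IL13RA1 0.46 in the low class (adjusted p = 0.396) and 1.63 in the full class (adjusted p = 0.0304), and the interaction of class and tumor was -1.17 ± 0.47 (adjusted p = 0.338). Its other probe sets had 0.85 (adjusted p = 0.123) and -0.12 (adjusted p = 0.435). Against single organs the differences were 1.41 for lymph node (adjusted p = 0.026), 1.18 for kidney (0.0525) and 0.56 for liver (0.412).

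IL13RA2 binds IL-13 with high affinity and is known as a decoy receptor. Of the 15 tumors, 14 had values between 3.09 and 3.79, and tumor 11 had 5.40. The livers had 6.90 and 7.47, the lymph nodes 7.67 and 6.18, the kidneys 3.47 and 3.42, cell line 1 had 7.54 and cell line 2 had 3.44. Every tumor was below liver and lymph node, and tumors and kidney overlapped. Against the normal samples the difference was -2.38 ± 0.51 (5.20-fold lower; limma, adjusted p = 0.00376). It was -3.71 ± 0.64 against liver (adjusted p = 0.000238), -3.45 ± 0.64 against lymph node (adjusted p = 0.00116) and 0.03 ± 0.64 against kidney (adjusted p = 0.990). The call against normal samples was lost without either liver (0.0155 and 0.0157) or without lymph node replicate 1 (0.0120), that against liver without liver replicate 2 (0.0185), and that against lymph node without lymph node replicate 1 (0.0892). Because the cell lines lay at opposite ends, their mean difference from the tumors, 2.02 ± 0.64 (adjusted p = 0.0385), describes neither of them.

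IL1R2, the decoy receptor that takes up IL-1 without signalling, was 8.99 and 7.77 in liver, 8.73 and 7.68 in the cell lines, 7.26 and 6.06 in lymph node and 4.47 and 4.17 in kidney. The tumors had 4.70 at the lowest, 5.41 at the median and 7.18 at the highest. They were all above the kidneys and all below the livers and the cell lines. The cell lines were higher than tumors by 2.61 ± 0.55 (6.12-fold; limma, adjusted p = 0.0035), and tumors lower than liver by 2.79 ± 0.55 (6.92-fold; adjusted p = 0.00104). The first did not pass without cell line 1 (2.09, adjusted p = 0.114) or cell line 2 (3.14, adjusted p = 0.0179), and the second not without liver replicate 1 (-2.18, adjusted p = 0.0852). The second probe set of IL1R2 was 2.44 higher in the cell lines (adjusted p = 0.000131) and its tumor minus liver difference was -1.66 (adjusted p = 0.00191).

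IL17RB, a receptor for IL-25, was lower in tumors (3.87 to 4.45, median 4.11) than in liver (4.58 and 4.77) by 0.55 ± 0.13 (limma, adjusted p = 0.00441). No tumor reached the livers, but the values are dim, and the call was lost without liver replicate 1 (0.0219) or 2 (0.145). IL10RB, the shared chain of the receptors for IL-10, IL-22 and interferon lambda, was 7.30 to 9.64 in tumors (median 8.46) and 7.24 and 6.38 in kidney, so that all tumors were above kidney (1.77 ± 0.45, adjusted p = 0.0118). The remaining interleukin receptors, IL17RE, IL2RA, IL2RB, IL2RG, IL5RA and IL6ST, had a smallest adjusted p of 0.0194 over all comparisons for the probe sets used, that of IL2RB, which was 4.96 and 4.92 in the cell lines and at most 4.78 in tumors. The probe sets of IL2RB differed, since another one was lower in tumors than in lymph node by 1.98 (limma, adjusted p = 3.47e-07), against -0.07 (adjusted p = 0.901) for the one used. IL2RG, the gamma chain shared by several T cell cytokine receptors, was 5.07 in lymph node replicate 2 and 3.93 in replicate 1, the latter within the 3.44 to 4.19 of the tumors.

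Among the TNF family, TNFRSF14, the herpes virus entry mediator that lymphocytes use to receive and send signals, passed against lymph node. It was 8.12 and 9.5 there, 5.49 to 7.09 in tumors (median 6.07), 5.87 and 5.65 in kidney, 5.83 and 6.12 in liver and 5.56 and 5.20 in the cell lines. The lymph nodes did not overlap with any other sample. The tumors were lower by 2.68 ± 0.33 (6.43-fold; limma, adjusted p = 1.19e-05). TNF itself was under 5 in every sample, and its smallest adjusted p over all comparisons was 0.205. TNFRSF11A, the receptor for RANKL on osteoclast precursors, was 4.89 to 6.02 in tumors and 4.78 to 5.24 in the normal samples, a difference of 0.20 ± 0.12 (adjusted p = 0.341).

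TNFAIP8L3, a lipid transfer protein, was higher in tumors than in kidney by 3.09 ± 0.68 (8.51-fold; limma, adjusted p = 0.00354). The kidneys had 4.32 and 3.76 and the tumors 5.71 to 9.11 with a median of 6.62, without overlap. Livers, at 6.99 and 7.80, lay within the range of the tumors, and lymph nodes, at 5.70 and 4.30, below all of them. The kidney call did not pass without kidney replicate 1 (3.37, adjusted p = 0.0367) or 2 (2.81, adjusted p = 0.0765). TNFAIP1, an adaptor of a ubiquitin ligase, was 8.89 and 9.0 in the cell lines, above all tumors (5.64 to 8.53, median 7.55), with a difference of 1.59 ± 0.50 (adjusted p = 0.0377). Its 8 other probe sets had cell line minus tumor differences of -0.20 to 0.59 (limma, smallest adjusted p = 0.114). Between tumors and normal samples they differed by -0.45 to 0.53, against -0.80 for the one used.

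The spread between tumors was wider for the probe sets of these genes than over all probe sets. The median SD over the 15 tumors was 0.51 for the 49 genes and 0.26 for all probe sets. Each of the 49 genes was represented by its probe set of highest mean, while 33.8% of all probe sets stayed under 5 in every sample. The part of that choice in these comparisons of SD was not tested. Of the 49, 11 had an SD of at least 1, or 22.4%, while 4.83% of all probe sets did. Of these 11, 6 were chemokines: CCL2 (SD 2.13), CXCL10 (1.68), CCL4 (1.47), CCL5 (1.31), CCL23 (1.21) and CCL14 (1.10). The others were IL33 (1.90), IL1B (1.46), IL1A (1.16), TNFRSF1A (1.06) and TNFAIP8L3 (1.02), and the next gene was CCL3 (0.91). Among the 7 tumors with low 5′ signal alone, 6 genes reached an SD of 1. Among the 8 with full 5′ signal, CXCL10 (0.86), CCL5 (0.68), TNFRSF1A (0.80) and TNFAIP8L3 (0.83) fell below 1. CCL3 (1.12) and CSF2 (1.12) rose above it there. The share of all probe sets within either class is not given here, so these changes have no reference.

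**Figure D3:**
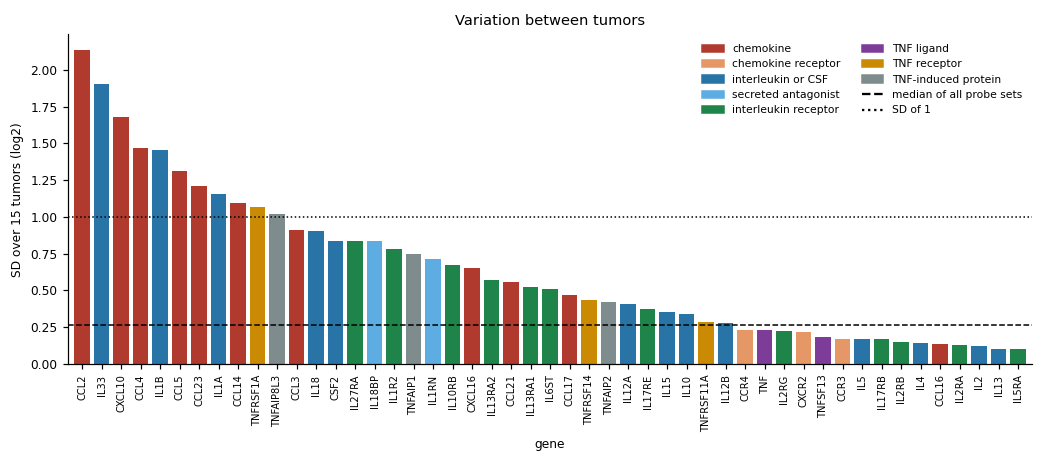
Bars give the SD of the log2 value over the 15 tumors for each of the 49 genes, coloured by role. The dashed line is the median SD of all probe sets (0.26) and the dotted line an SD of 1, which 11 genes exceed.

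A few tumors carried the extremes. CCL2 was 12.5, 12.1 and 11.9 in tumors 5, 15 and 11, and between 5.94 and 9.72 in the other 12. IL33 was 9.99 in tumor 5, 8.77 in tumor 2, 8.76 in tumor 11 and 7.60 in tumor 15, and at most 7.05 in the rest. All of these belong to the 5 tumors of high Dap signal. The fifth, tumor 6, had the lowest CCL2 of all tumors, 5.94, and an IL33 of 5.89. Over the 10 other tumors the SD was 1.14 for CCL2 and 0.88 for IL33, and what the Dap signal has to do with these genes was not tested.

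Tumor 15 had the highest values of IL1A and IL1B, early signals of inflammation, followed by tumor 5, and stood alone for CSF2, the growth factor of granulocytes and macrophages. IL1A was 7.91 there, 4.82 in tumor 5 and 3.35 to 3.95 in the other 13. IL1B was 8.05 in tumor 15, 6.86 in tumor 5 and at most 3.63 in the rest, and no normal sample or cell line was above 3.67. CSF2 was 8.95 in tumor 15 and at most 6.23 in any other tumor. CCL3 and CCL4, which leukocytes release on activation, were also highest in tumor 15, at 8.14 and 7.98. A second probe set of IL1B gave 6.51 in tumor 15 and at most 4.64 elsewhere among the tumors, and the remaining 5 reached at most 4.04 in any tumor. In the 13 tumors other than 5 and 15, IL1A, at most 3.95, and IL1B, at most 3.63, did not exceed the highest organ values of 3.97 and 3.67. Tumors 5 and 15 both belong to the 5 of high Dap signal. Over the 10 other tumors the SD was 0.16 for IL1A, 0.14 for IL1B and 0.20 for CSF2. The part of the Dap signal in these values was not tested.

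CXCL10 and CCL5 were high in another set of tumors. CXCL10 was 9.74 in tumor 7, 8.69 in tumor 10 and 8.09 in tumor 4, with a median of 5.75 and a lowest value of 4.21. CCL5 was 9.17 in tumor 14, 8.84 in tumor 10, 7.77 in tumor 4, 7.41 in tumor 7 and 7.34 in tumor 9, and at most 6.05 in the other 10. The lymph nodes had 7.69 and 9.33 for CCL5. All of these tumors except tumor 9 had low 5′ signal and none had high Dap signal. The 5 tumors with high Dap signal had 4.21 to 5.69 for CXCL10 and 5.09 to 5.82 for CCL5. Low against full 5′ signal gave 1.65 ± 0.72 (limma, adjusted p = 0.199) for CXCL10 and 1.40 ± 0.55 (adjusted p = 0.149) for CCL5.

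The 5′ signal moved with 2 other genes. Among the tumors, 3.18% of all probe sets differed between low and full 5′ signal, and TNFRSF1A and IL1RN were the members that passed. TNFRSF1A, the main signalling receptor for TNF, was 4.12 to 4.46 in the 7 tumors with low 5′ signal and 5.0 to 6.76 in the 8 others, without overlap (-1.74 ± 0.29, 3.34-fold; limma, adjusted p = 0.00152). IL1RN, the secreted antagonist of the IL-1 receptor, was 3.83 to 4.16 and 4.22 to 5.82 (-1.08 ± 0.23, adjusted p = 0.00835). The organs of both classes had 4.21 to 4.91 for TNFRSF1A, and the cell lines, with full signal, 5.93 and 5.54. The high SD of TNFRSF1A over the tumors therefore contains this split, with an SD of 0.12 inside the low class and 0.80 inside the full class. Interferon receptors outside the name rule, IFNGR1 (-1.70 ± 0.16, adjusted p = 1.01e-05) and IFNAR1 (-1.22 ± 0.20, adjusted p = 0.00161), were lower with low 5′ signal too. Another limma fit asked whether the difference between tumors and normal samples depended on the 5′ class. Over all 23836 probe sets it called only 1 higher and 8 lower. It passed 0 of the 49 genes, and 5 had an unadjusted p under 0.05. With so few calls over all probe sets, this count does not show that the 49 genes are free of such dependence.

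**Figure D4:**
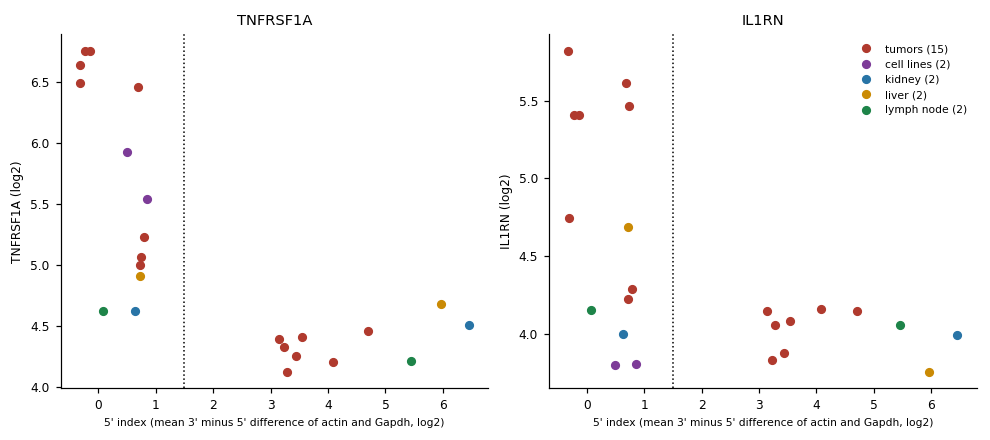
Log2 value of TNFRSF1A and IL1RN on the y axes against the 5′ index on the x axes, 1 point per sample and coloured by group. The dotted line is the border of 1.5. Left of it the 8 tumors with full 5′ signal spread upward, to 6.76 for TNFRSF1A, and right of it the 7 tumors with low signal stay at or below 4.46.

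Mean levels of marker genes were used as scores of cell types. The 12 genes of highest SD were set against mean scores of T and NK cells, B and plasma cells, macrophages and osteoclasts over the 15 tumors, 48 relations in all. The B and plasma cell score rests on only 3 of 14 listed genes and the osteoclast score on 4 of 9. The macrophage score rests on 17 of 22 and the T and NK cell score on 8 of 23, and the latter spanned only 4.92 to 5.61 in tumors against 6.75 to 7.85 in lymph node. After adjustment 2 passed 0.05, both by Pearson's r and by Spearman's rho. CCL23 followed the macrophage score with r = 0.84 (permutation p = 7e-05, adjusted 0.00336) and rho = 0.85 (permutation p = 0.0002, adjusted 0.0096). Without tumors 10 and 11, the farthest from the median score, r was 0.80. It was 0.90 in the low 5′ class, 0.93 in the full class and 0.89 without the tumors of high Dap signal. CCL5 followed the T and NK cell score with r = 0.83 (permutation p = 0.00047, adjusted 0.0113) and rho = 0.78 (p = 0.00097, adjusted 0.0155 by permutation), and with r = 0.61 without tumors 10 and 14. CXCL10 followed the same score by rho (0.79, adjusted 0.0155 by permutation) and not by r (0.60, adjusted 0.206). The r of CXCL10 was 0.39 in the low 5′ class, 0.90 in the full class and 0.37 without the tumors of high Dap signal, and that of CCL5 was 0.82, 0.90 and 0.77. IL33 ran against the osteoclast score (r = -0.71, adjusted permutation p = 0.0506, rho = -0.59, adjusted 0.20), and without tumors 2 and 5 r was -0.43.

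**Figure D5:**
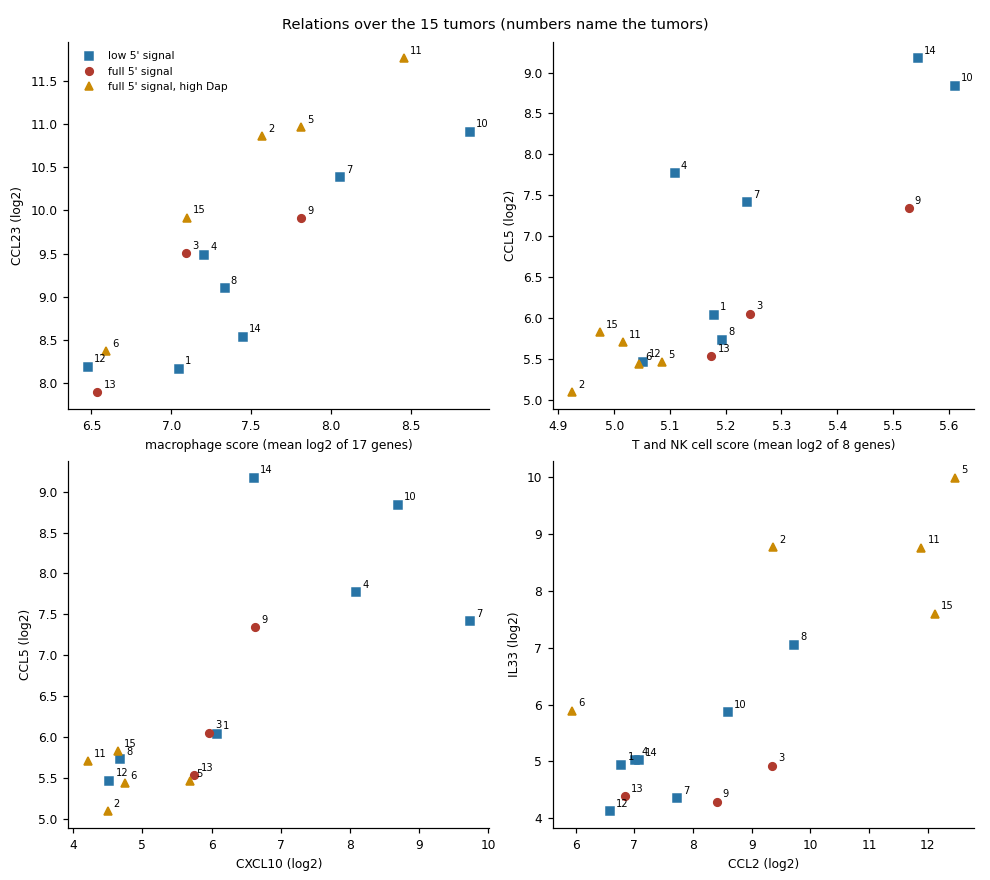
Each point is 1 of the 15 tumors, marked by number, with squares for low 5′ signal, circles for full 5′ signal and triangles for full 5′ signal with high Dap signal. CCL23 climbs with the macrophage score (r = 0.84), CCL5 with the T and NK cell score (r = 0.83) and with CXCL10 (r = 0.76), and the highest values of IL33 and CCL2 are triangles (r = 0.81).

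Pairs among the same 12 genes gave 66 relations, of which 8 passed 0.05 by r and 2 by both measures, all positive. Those 2 were CXCL10 with CCL5 (r = 0.76, adjusted permutation p = 0.0239, rho = 0.79, adjusted 0.030) and CCL2 with CCL23 (r = 0.74, adjusted permutation p = 0.0239, rho = 0.79, adjusted 0.030). Without tumors 7 and 10 the first was 0.75, and without tumors 5 and 15 the second was 0.79, but CCL2 with CCL23 fell to 0.50 in the low 5′ class and 0.56 without the tumors of high Dap signal. CCL2 with IL33 had r = 0.81 (adjusted permutation p = 0.0142) and rho = 0.66 (adjusted 0.120), and 0.64 over the 10 tumors without high Dap signal. CCL4 with CCL3, neighbours in the same chemokine cluster, had r = 0.77 (adjusted permutation p = 0.0142), and 0.60 without tumors 14 and 15. IL1B with IL1A had the highest r, 0.92 (adjusted permutation p = 0.0239), but -0.02 without tumors 5 and 15, so that relation rests on those 2 tumors. CCL2 with IL1B had r = 0.71 (adjusted permutation p = 0.0150), CCL4 with IL1B 0.70 (0.0239) and CCL4 with IL1A 0.63 (0.0475). Without the tumors of high Dap signal these r values were 0.17, 0.555 and -0.008. By rho their adjusted permutation p was 0.120, 0.120 and 0.656. The genes of all these pairs were picked for their variation in the same tumors.

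Ligands were also set against their receptors. Not every pair among the 49 genes was examined, and IL5 with IL5RA, for example, was left out. The relations cover the 7 pairs of a prepared list with both genes among the 49. Of these, IL1A with its decoy receptor IL1R2 passed by both measures (r = 0.68, adjusted permutation p = 0.0154, rho = 0.69, adjusted 0.0378), and r was 0.48 without tumors 5 and 15. IL1B with IL1R2 had r = 0.77 (adjusted permutation p = 0.0154) and 0.18 without those tumors, and thus rests on them. IL1R2 was 7.18 in tumor 5 and 7.0 in tumor 15, its highest values. Pearson's r for CCL17 with CCR4, IL2 with IL2RA, IL13 with either receptor and TNF with TNFRSF1A lay between -0.35 and 0.37, with a smallest adjusted permutation p of 0.332. By rho the smallest was 0.181, for CCL17 with CCR4 (rho = -0.47), whose r of -0.32 became -0.72 without tumors 7 and 9.

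Cytokine receptors signal through JAK kinases and STAT factors, and TNF receptors through TRAF adaptors and NF-kappa B. Of 64 listed genes of this machinery 14 had a probe set of their own. One of them, SOCS5, a suppressor of cytokine signalling, passed against the normal samples (2.25 ± 0.44 higher in tumors; limma, adjusted p = 0.00169), and also against kidney (2.78, adjusted p = 0.00207) and liver (3.09, adjusted p = 0.000598). SOCS5 was 8.81 to 11.1 in tumors, 5.14 and 8.30 in kidney, 5.61 and 7.21 in liver and 8.48 and 8.80 in lymph node. The samples of kidney and of liver thus lay far apart, and the higher kidney was near the lowest tumor. Every tumor was above both lymph nodes, although that difference of 0.86 ± 0.58 did not pass (limma, adjusted p = 0.550). STAT3, which relays IL-6 type signals, was higher in tumors than in kidney (1.55 ± 0.38, adjusted p = 0.00793) and lower in the cell lines than in tumors (-1.54 ± 0.38, adjusted p = 0.0093). TRAF3 was 5.64 and 6.15 in the cell lines and at most 4.56 in tumors (1.51 ± 0.19 higher, adjusted p = 3.8e-05). TNIP3, an inhibitor of NF-kappa B, marked kidney, at 8.05 and 8.07 against at most 4.65 in tumors (-4.32 ± 0.45, adjusted p = 4.36e-07). PIAS2 was 0.70 ± 0.18 higher in tumors than in liver (adjusted p = 0.00865). Against lymph node limma passed 0 of the 14, and 5 had an unadjusted p under 0.05.

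Of 40 listed ligands and receptors outside the name rule, 11 were measured. CD40, through which T cells activate B cells and macrophages, and its ligand CD40LG were lower in tumors than in lymph node, by 2.68 ± 0.33 (limma, adjusted p = 1.46e-05) and 1.71 ± 0.20 (adjusted p = 4.92e-06). CD40 was 8.91 and 9.09 in lymph node and at most 6.88 in tumors, and CD40LG 5.31 and 6.16 against at most 4.40. IFNGR2, a chain of the interferon gamma receptor, was higher in tumors than in liver (1.70 ± 0.30, adjusted p = 0.000344) and lower in the cell lines than in tumors (-1.62 ± 0.30, adjusted p = 0.00144).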

How the data were processed

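RNA of the 23 samples was hybridized to Affymetrix canine genome arrays. The deposited values are log2 expression values, which the authors made by robust multi-array averaging (RMA, with affy among the tools of the submitters' processing notes; versions are not given in the sources used here). RMA gives all arrays a common distribution, so a change in total RNA per cell cannot be seen, and it compresses differences of dim probe sets. Precision depends on how many arrays a group has, since arrays carry no count of reads.

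From 23913 probe sets 77 controls were set aside, which left 23836. GEO's platform annotation gave 1 symbol to 10549 of them, several to 138 and none to 13149, and 10046 matched a RefSeq gene of assembly UU_Cfam_GSD_1.0 by gene identifier. The genes and lists were chosen with earlier results of these data known. Two-sided moderated tests were run in R 4.3.3 by limma 3.58.1, functions lmFit and eBayes, with Benjamini-Hochberg adjustment over all 23836 probe sets and a threshold of 0.01, and were checked on simulated data. Tumors against normal samples was a model of 21 samples in 2 groups. Each organ and the cell lines were contrasted with the tumors in a model of all 23 samples in 5 groups with a shared spread, and the organs were compared by a moderated F-test on 6 samples. Relations over tumors used two-sided permutation p-values from 100000 resamples in Python 3.11.15.

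The study calls the organ samples biological replicates, but the labels do not say which samples share a dog, so the p-values reflect the spread among these samples alone, which may be technical. Same-numbered organ samples deviated together from their organ means (over all probe sets r was 0.607 between kidney and liver, 0.596 between kidney and lymph node and 0.53 between liver and lymph node), and the numbers were taken as pairs. Named were the members past the threshold (for tumors against normal samples also those nearest to it, up to 10), the 12 of highest SD over the tumors, and examples by role with the highest mean level. Members named beyond these were chosen after their values were seen. The alternatives covered the 5′ signal, organ as a block, averaged organs, a minimum mean of 5, limma's trend and robust settings, centred arrays, other probe sets and leaving out each sample. The tests of 5′ class, the pairs among variable genes, the split by Dap signal and the counts of groups without overlap were added after the data had been seen.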

Additional observations from a re-analysis of the deposited data

How the results depend on the processing

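Of the single-gene results under all alternatives, 523 kept their direction and side of the threshold, 78 fell short of it, 11 newly passed and none changed sign. The 3 genes past the threshold between tumors and normal samples became 0 among arrays with low 5′ signal alone (7 had an unadjusted p under 0.05 in limma). They became 0 with full 5′ signal alone (11 unadjusted) and 0 with 1 averaged profile per organ (10 unadjusted). Fewer samples entered these fits. The model of 5 groups, which leaves the differences among organs out of the spread, passed 6 genes. It added CCL23 (adjusted p = 0.00439), TNFAIP8L3 (0.00975) and CCL21 (0.000121). Calls over all probe sets shifted as well, from 720 higher and 699 lower in the main fit. They were 211 and 61 with low 5′ signal, 171 and 82 with full 5′ signal and 317 and 355 with averaged organs. In the model of 5 groups they were 1063 and 1827. With organ as a random block the adjusted p of IL13RA1 was 0.0323. The 2 genes against kidney became 4 with the 5′ index as a covariate, where all probe sets went from 476 higher and 1254 lower to 570 and 1309. With probe sets of a mean of at least 5 alone, the 4 against liver became 1, the 5 against lymph node 2 and the 3 among organs 5. The genes that this minimum took out of the calls were CCL16, IL13RA2 and IL17RB against liver and IL13RA2, IL18 and IL2 against lymph node. It also took out CCL16 and IL13RA2 against the normal samples and CCL16 against kidney. CCL23 newly passed against the normal samples (limma, adjusted p = 0.00553). In each of these 2 comparisons 2 genes passed. With the replicate block, 8 genes passed among organs, while calls over all probe sets went from 736 to 1477. No other comparison has paired numbers. The 11 genes with an SD of at least 1 became 6 among tumors with low 5′ signal, without a share of all probe sets to set this against. Leaving out each sample gave 0 to 4 genes against normal samples (0 without liver replicate 2, with 11 at an unadjusted p under 0.05), 1 to 3 against kidney, 2 to 5 against liver, 3 to 7 against lymph node, 0 to 2 for cell lines (0 without cell line 1, 9 unadjusted), 0 to 1 among organs (0 without kidney replicate 2 or either lymph node, 17 to 25 unadjusted) and 8 to 11 for the SD. The cause of the other shifts was not tested. Signal near the floor limits what can be seen in the 11 genes that stayed under 5.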
